A study of Drosophila melanogaster with 3 samples.

Results

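The 73 genes of Drosophila melanogaster that carry mitochondrial ribosomal protein symbols were examined for binding of the CG6254 protein at their promoters. They were chosen by name alone, as the protein-coding genes of the Ensembl BDGP6 annotation whose symbol is mRpL or mRpS followed by digits and an optional letter, out of 13945 protein-coding genes on 6 chromosome arms. By symbol, 47 encode proteins of the large subunit (mRpL) and 26 proteins of the small subunit (mRpS). The data came from chromatin immunoprecipitation and sequencing of 3 biological replicates of whole embryos, aged 0 to 14 h and of both sexes together, from 1 transgenic line that stably makes CG6254 joined at its C-terminus to green fluorescent protein (GFP). CG6254 encodes a zinc finger protein, the DNA it contacts was recovered through the tag with an anti-GFP antibody, and the chromatin was sonicated to a size range of 200 to 800 bp. All replicates are of 1 group with the same line and age, and no untagged or differently treated embryos were compared. Whole embryos hold many tissues, so a summit does not show in which cells the protein was bound.

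The mitochondrial ribosome makes the few proteins that mitochondrial DNA encodes, nearly all of them parts of the respiratory chain. Its proteins are encoded in the nucleus, made in the cytosol and imported into mitochondria. Some have counterparts in the bacterial ribosome, and others were added during the evolution of mitochondria. Genes of this kind are needed in most tissues, and many lie head to head with a neighbouring gene, so that one stretch of DNA serves as the promoter region of both.

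A gene was counted as bound when the summit of a peak lay within 500 bp of one of its transcription start sites (TSSs). By this count 13 of the 73 mitochondrial ribosomal protein genes (17.8%) were bound in the peak list that passed the irreproducible discovery rate (IDR) comparison of replicates, against 14.8% of all protein-coding genes. The bound genes of the large subunit were mRpL4, mRpL17, mRpL20, mRpL21, mRpL23, mRpL24, mRpL41 and mRpL43, and those of the small subunit were mRpS2, mRpS7, mRpS10, mRpS18B and mRpS23. The share of bound members was near that of all genes, and 60 members had no IDR summit in the window. In strength the 13 bound members spread from rank 81 to rank 3686 of the 4426 IDR peaks. With 1 replicate left out, IDR peaks were kept only if matched within 200 bp among the strongest 4426 peaks of both other replicates. By this rule 9 members (12.3%) were bound without replicate 1, 8 (11.0%) without replicate 2 and 8 (11.0%) without replicate 3. The shares of all genes were 9.66%, 9.42% and 10.9%. The IDR list itself came from all 3 replicates, so these counts could only fall. When each summit was given only to the gene of its nearest TSS, 5 members were bound (6.85%), a share below the 10.9% of all genes.

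The DNA under these summits shows what most of them had in common. The following 101 bases are centred on the summit and read 5′ to 3′ on the strand of the named gene, with runs of 8 or more bases made only of A and T in capitals. They lie at 2L:13835399-13835499 (mRpS23), 3R:15229486-15229586 (mRpS10), 2L:4850528-4850628 (mRpS2), 2L:4945455-4945555 (mRpL24), 3L:13018052-13018152 (mRpL20), 3L:264487-264587 (mRpL17) and 2L:16329169-16329269 (mRpL4) on dm6, and were read from the RefSeq copy of that assembly. The first 4 are among the strongest member peaks, mRpL20 and mRpL17 are weaker peaks with long runs, and mRpL4 is the one bound member without such a run.
mRpS23: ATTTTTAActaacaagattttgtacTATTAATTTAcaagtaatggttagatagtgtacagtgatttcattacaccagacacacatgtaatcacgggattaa
mRpS10: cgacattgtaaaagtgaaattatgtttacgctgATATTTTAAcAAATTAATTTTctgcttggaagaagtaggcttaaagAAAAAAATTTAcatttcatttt
mRpS2: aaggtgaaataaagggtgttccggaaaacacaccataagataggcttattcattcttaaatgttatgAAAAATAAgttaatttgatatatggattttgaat
mRpL24: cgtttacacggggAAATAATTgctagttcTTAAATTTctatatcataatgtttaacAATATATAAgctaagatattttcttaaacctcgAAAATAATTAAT
mRpL20: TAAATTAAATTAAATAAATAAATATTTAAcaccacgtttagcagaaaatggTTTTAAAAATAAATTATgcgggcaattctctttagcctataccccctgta
mRpL17: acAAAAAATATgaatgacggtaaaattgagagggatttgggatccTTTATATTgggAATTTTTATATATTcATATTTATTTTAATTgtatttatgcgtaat
mRpL4: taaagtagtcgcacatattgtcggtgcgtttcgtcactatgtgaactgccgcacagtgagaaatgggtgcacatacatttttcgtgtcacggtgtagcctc

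Across the 13 bound members the median GC content of the 101 bases at the summit was 27.7%, with a range of 20.8% to 47.5%. In a flank of the same length centred 350 bp away, to the right on the reference strand, the median was 45.5%. For the 1727 IDR peaks at promoters of protein-coding genes the medians were 33.7% at the summit and 44.6% in the flank. A low GC content at the summit was therefore not limited to these genes. A run of 8 or more A or T bases was present at 12 of the 13 member summits (92.3%) and in 3 of their 13 flanks, against 71.5% of summits and 44.4% of flanks for the promoter peaks. The summit at mRpL23 had the lowest value, with 20.8% GC at the summit and 60.4% in the flank. The longest run was at mRpL20, with 29 bases. The reverse held at mRpL4, whose summit had 47.5% GC, a longest run of 6 bases and a flank of 26.7% GC. At every other bound member the centre of the flank lay inside an annotated gene. At mRpL4 it lay between the member and CG4440, which starts upstream on the opposite strand. The part of this placement in the difference between summit and flank was not tested. How far the sequence composition enters the peak signal was not tested.

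**Figure D1:**
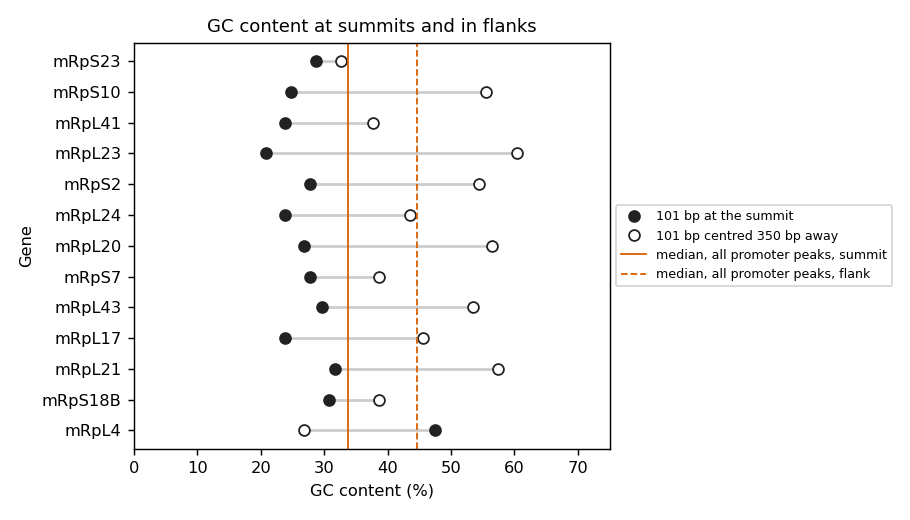
GC content in percent of the 101 bases at the summit and of the flank centred 350 bp away, for each of the 13 bound mitochondrial ribosomal protein genes, with lines at the medians of the 1727 promoter peaks. The summit has a lower GC content than the flank at 12 of the 13 genes, and mRpL4 is the exception. The centre of the flank lies inside an annotated gene at all of them but mRpL4.

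The ranks and signals below are the authors' own values, on a scale that is not stated, and rank 1 is the strongest peak of a list. Among the bound genes of the small subunit, the strongest peak was at mRpS23 (FBgn0260407, peak at 2L:13835321-13835611 on dm6), which encodes a protein with no counterpart in bacteria. The pooled signal there was 1574.58 (rank 81), and the replicate signals were 422, 607 and 545, at ranks 85, 87 and 91. At mRpS10 (FBgn0038307, 3R:15229388-15229682) the pooled signal was 1472.05 (rank 91) and the replicate signals were 411, 478 and 580, at ranks 87, 106 and 83. The bacterial S10 protein sits in the head of the small subunit. For both genes the replicates placed the peak at closely similar ranks. At mRpS2 (FBgn0031639, 2L:4850526-4850654), named for another protein of the bacterial small subunit, the pooled signal was 530.474 (rank 512), and the replicate signals were 132, 218 and 183, at ranks 554, 440 and 639.

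The other bound small-subunit genes had weaker peaks on which the replicates differed. At mRpS7 (FBgn0032236, 2L:10386308-10386723), whose bacterial counterpart binds the ribosomal RNA of the head, the pooled signal was 199.873 (rank 2772) and the replicate signals were 30.4, 65.5 and 94.9, at ranks 8709, 4617 and 1815. At mRpS18B (FBgn0032849, 2L:20097096-20097511) the pooled signal was 176.156 (rank 3390) and the replicate signals were 28.2, 77.5 and 60.4, at ranks 9983, 3335 and 3567. Replicate 1 ranked both peaks far below where replicate 3 did. In replicate 1 neither was among the strongest 4426 peaks, which is the number the IDR list holds, and in replicate 2 mRpS7 was outside them too.

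In the large subunit the strongest peak was at mRpL41 (FBgn0034001, 2R:15217596-15217901), which again encodes a protein without a bacterial counterpart. Its pooled signal was 1283.58 (rank 108), and the replicate signals were 327, 446 and 522, at ranks 109, 118 and 96. At mRpL23 (FBgn0035335, 3L:2373472-2373738) the pooled signal was 872.308 (rank 206), with replicate signals of 248, 291 and 329 at ranks 175, 252 and 204. At mRpL24 (FBgn0031651, 2L:4945405-4945581) the pooled signal was 475.746 (rank 629), with replicate signals of 141, 158 and 172 at ranks 485, 856 and 710. The bacterial L23 and L24 proteins surround the exit of the tunnel through which the new protein chain leaves the ribosome. For all 3 of these genes the peak ranked within the strongest 4426 in each replicate.

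The remaining bound genes of the large subunit had peaks below rank 2000. The strongest of them was at mRpL20 (FBgn0036335, 3L:13017894-13018309), whose bacterial counterpart is needed early in the assembly of the large subunit. Its pooled signal was 227.587 (rank 2234) and its replicate signals were 61.5, 74.0 and 102, at ranks 2366, 3611 and 1639. This peak, too, ranked within the strongest 4426 in each replicate. At mRpL43 (FBgn0034893, 2R:23697750-23698165), which has no bacterial counterpart, the pooled signal was 193.935 (rank 2896) and the replicate signals were 48.6, 63.6 and 57.6, at ranks 3689, 4887 and 3798. At mRpL17 (FBgn0035122, 3L:264329-264744), named for a bacterial protein at the tunnel exit, the pooled signal was 190.178 (rank 2985) and the replicate signals were 64.6, 87.7 and 32.5, at ranks 2133, 2649 and 9396. At mRpL21 (FBgn0036853, 3L:19255004-19255419), whose bacterial counterpart lies next to L20, the pooled signal was 187.082 (rank 3074) and the replicate signals were 36.8, 91.6 and 56.7, at ranks 6121, 2416 and 3880. For these last 3 genes 1 replicate each placed the peak outside its strongest 4426, and it was a different replicate each time. At mRpL4 (FBgn0001995, 2L:16329011-16329426), named for the bacterial protein that helps to line the exit tunnel, the pooled signal was 166.603 (rank 3686), the lowest of the 13, and the replicate signals were 39.3, 75.7 and 42.8, at ranks 5450, 3470 and 5963.

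**Figure D2:**
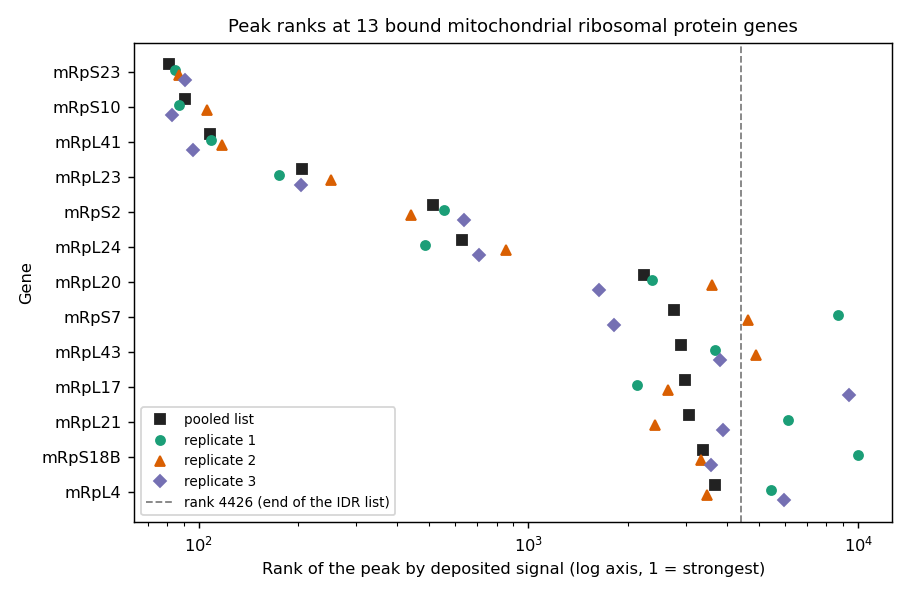
Rank of the promoter peak by deposited signal (log axis, 1 = strongest) at each of the 13 bound genes, in the pooled list and in each of the 3 replicates. The upper 6 genes lie at pooled ranks 81 to 629 and the lower 7 at 2234 to 3686. On the log axis the replicates are spread more widely at most of the lower 7, but not at mRpL43 and mRpL4.

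The bound members thus fell into 6 genes at pooled ranks 81 to 629 and 7 at ranks 2234 to 3686, with none between. The median rank was 2234, against 2076 for the 1727 promoter peaks, and among the members kept on leaving out replicates 1, 2 and 3 it was 512, 359 and 359. All 7 of the weaker peaks had an interval of 416 bp, the median width of the list, and the 6 stronger ones were narrower. Of the 13 peaks, 4 (30.8%) were in the strongest 443 of the IDR list, against 251 of the 1727 promoter peaks (14.5%). Counted over genes, 4 of 73 members (5.48%) and 2.27% of all protein-coding genes had one of those summits in the window. These 4 were mRpS23, mRpS10, mRpL41 and mRpL23. A count of 4 leaves a wide error, and no test was made over genes.

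Replicates gave a similar count but not the same genes. Among the strongest 4426 peaks, replicate 1 had 14 of the 73 members (19.2%) against 16.4% of all genes. Replicate 2 had 15 members (20.5%) against 16.0%, and replicate 3 had 11 (15.1%) against 12.6%. Bound in all 3 of these lists were 7 members (9.59%), against 8.88% of all genes. With a window of 1000 bp the same count stood against 11.2% of all genes, and in the lists of replicates 1 and 2 alone 8 members (11.0%) stood against 11.9%, so the direction of this small difference turned. The 7 members were mRpS2, mRpS10, mRpS23, mRpL20, mRpL23, mRpL24 and mRpL41. Of the 13 IDR peaks at members, 7 were matched by a summit within 200 bp in the strongest peaks of 3 replicates, 4 in those of 2 and 2 in those of 1. These last were mRpS7 and mRpL4. For all promoter peaks of protein-coding genes, 994 of 1727 (57.6%) were matched in 3 replicates. All 13 member peaks were matched in the whole relaxed list of every replicate, and the replicate summits at the 6 strongest lay within 27 bp of the pooled summit.

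The lists before IDR, which hold 30000 peaks each and include background by design, reached further members. A summit in the window was present for 40 members (54.8%) in the pooled list, against 43.0% of all genes. In the replicate lists there were 48 members (65.8%) against 48.3% in replicate 1, 50 (68.5%) against 48.4% in replicate 2, and 31 (42.5%) against 37.4% in replicate 3. Present in all 3 replicate lists were 27 members (37.0%) against 26.7% of all genes, and absent from every one were 14 members (19.2%) against 37.1%. At 500 bp the share of members was above that of all genes in each of these lists, by the least in replicate 3. With a window of 1000 bp it was below in replicate 3, at 33 members (45.2%) against 47.3%, and above in the other lists (57.5% against 50.9% in the pooled list, 71.2% against 56.5% in replicate 1 and 75.3% against 55.9% in replicate 2). The 14 members in no replicate list were mRpL3, mRpL10, mRpL12, mRpL13, mRpL16, mRpL33, mRpL50, mRpL51, mRpS5, mRpS16, mRpS28, mRpS33, mRpS34 and mRpS35.

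**Figure D3:**
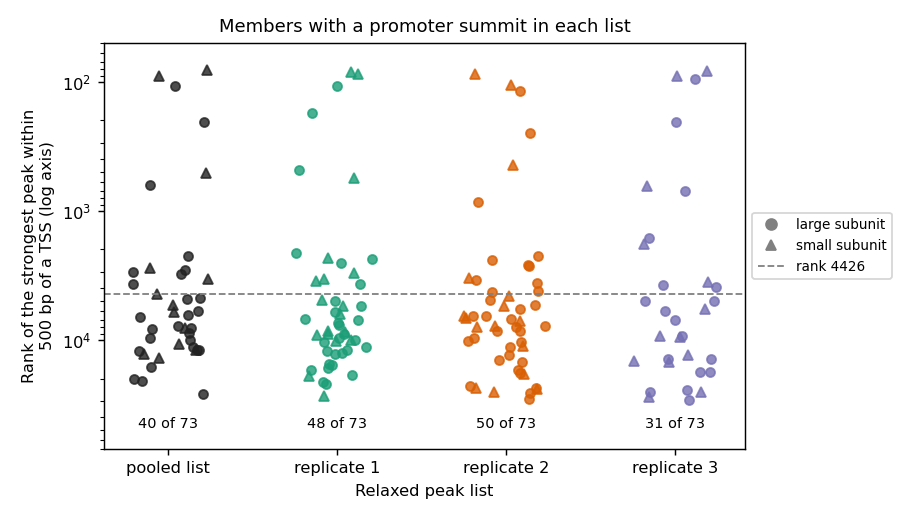
Rank (log axis) of the strongest peak within 500 bp of a TSS for each mitochondrial ribosomal protein gene in the pooled and the 3 replicate lists of 30000 peaks. Members without such a summit are not drawn, and the number with a summit is printed at the bottom. Markers separate the large and small subunits. In replicate 3, 31 members had a summit, against 48 and 50 in replicates 1 and 2.

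Taken by depth, the strongest 80 peaks of the pooled list reached no member and 0.581% of all genes, the first member peak being that of mRpS23 at rank 81. The share of members was above that of all genes at 443 and 1000 peaks, near it at 2000 and 4426, and above it again in the weaker part. The strongest 1000 peaks reached 6 members (8.22%) and 4.32% of all genes, and the strongest 2000 the same number of members and 7.55% of all genes. The strongest 10000 peaks reached 27 members (37.0%) and 26.2% of all genes, and the strongest 20000 reached 38 (52.1%) and 36.5%. From 4426 to 10000 peaks the count of members thus went from 13 to 27. The share of background in this part of the list was not analysed here.

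**Figure D4:**
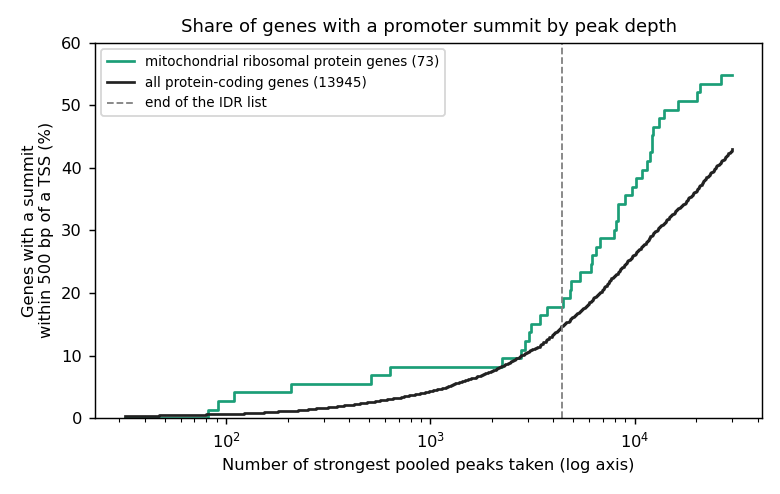
Share in percent of mitochondrial ribosomal protein genes and of all protein-coding genes that had a promoter summit (500 bp), plotted over the number of strongest pooled peaks taken (log axis), with the end of the IDR list at 4426 marked. The members lie above all genes at 1000 peaks (8.22% and 4.32%), near them at 2000 and 4426 (17.8% and 14.8%) and above them at 10000 (37.0% and 26.2%).

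The end of the IDR list fell directly before a member. The last IDR peak had a signal of 147.508 (rank 4426), and the next pooled peak, with 147.504 (rank 4427), lay 360 bp upstream of mRpS17, on the side of Nop60B, which encodes a pseudouridine synthase subunit. Its replicate ranks were 2346, 7880 and 13194. The members next in order were mRpL19 at pooled rank 4764 (replicate ranks 7009 and 2241, and none in replicate 3), mRpL39 at 4827 (16611, 6945 and 5002), mRpS22 at 5376 (5520, 6784 and 9459) and mRpL27 at 6038 (7414, 4225 and 17942). None of these 5 was among the strongest 4426 peaks of more than 1 replicate. The same was true of all 60 members outside the IDR list, of which 9 were in the strongest peaks of exactly 1 replicate. In replicate 1 these were mRpL48, mRpS11, mRpS17, mRpS21 and mRpS31, and in replicate 2 mRpL19, mRpL27, mRpL28 and mRpL47. A single further member, mRpL2, had an IDR summit between 500 and 1000 bp from its TSS, at 946 bp.

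Most bound promoters were shared with another gene by the 500 bp rule. A TSS of another gene lay within 500 bp of the same summit at 12 of the 13 bound members (92.3%), against 1089 of 2064 bound protein-coding genes (52.8%), and at 11 of the 12 the other gene was on the opposite strand. With a window of 200 bp this held for 6 of 10 bound members, against 553 of 1382 bound genes (40.0%). These partners were CenG1A (an Arf GTPase-activating protein) at mRpS23, Art3 (an arginine methyltransferase) at mRpS10, Mon1 (a factor of endosomal trafficking) at mRpS2, Cdk1 (the kinase that drives entry into mitosis) at mRpS7 and Kua at mRpS18B. In the large subunit they were CG9004 at mRpL23, betaggt-I (a subunit of an enzyme that attaches lipid anchors to proteins) at mRpL24, Icmt (an isoprenylcysteine methyltransferase) at mRpL20, CG30183 at mRpL43, Tudor-SN (a Tudor-domain nuclease) at mRpL17 and rept (an ATPase of chromatin complexes) at mRpL21. At mRpL41 the other TSS was that of lncRNA:CR44463 on the same strand, 448 bp from the summit, and at mRpL4 there was none. These members also face another gene, CG8079 and CG4440, but its start site is 762 bp and 793 bp from their own and too far from the summit to be counted.

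The facing start sites lay 24 bp (mRpL23 and CG9004) to 492 bp (mRpS23 and CenG1A) apart. The summit lay between them at 10 of these 11 promoters. At mRpS2 it was 159 bp upstream of the member and 63 bp upstream of Mon1, and at mRpL24 it was 144 bp and 74 bp from the start sites of the member and betaggt-I. At mRpS10 the distances to the member and to Art3 were 129 bp and 128 bp, and neither gene was closer by more than 1 base. At mRpS18B the summit was 51 bp from the member and 277 bp from Kua, and at mRpS7 it was 146 bp from the member and 254 bp from Cdk1. The summit at mRpL23 was the exception, since it lay 123 bp from CG9004 on the far side of the member's upstream start sites, inside the member's 5′ UTR. It was 73 bp downstream of the nearest of the 3 annotated TSSs of mRpL23, and 104 bp upstream of the TSS farthest from CG9004. Counted from that farthest TSS, it too lay between facing start sites. Of the 13 summits, 12 were upstream of the nearest TSS of the member (92.3%, against 83.2% of bound genes) and in intergenic DNA. The median distance was 146 bp, against 154.5 bp for bound genes. In 5 cases the member was the closest gene of all: mRpL4, mRpL23, mRpL41, mRpS7 and mRpS18B. A summit between facing start sites does not show which of the genes the protein serves.

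**Figure D5:**
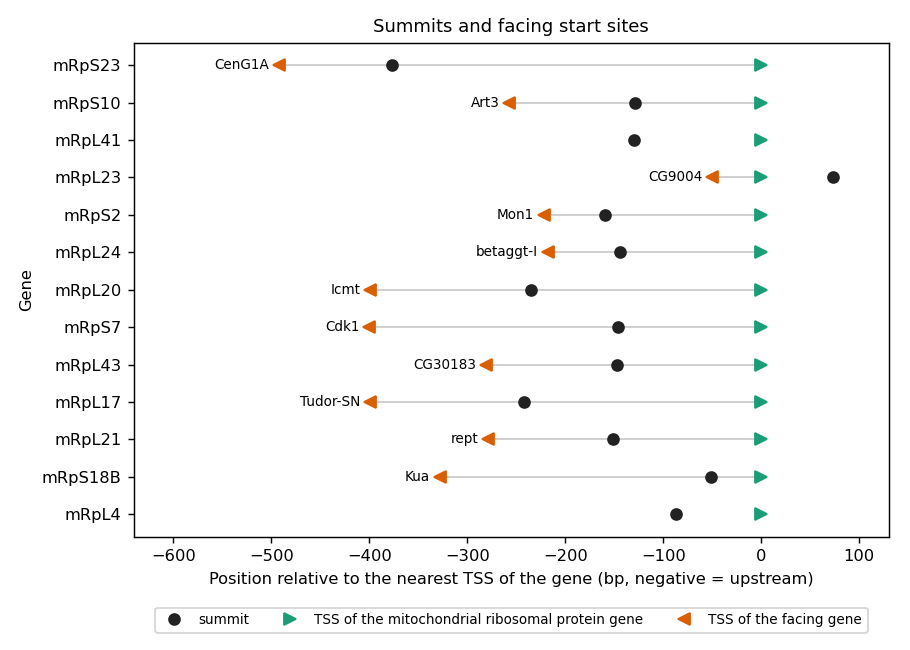
Position in bp of the IDR summit relative to the nearest TSS of each bound mitochondrial ribosomal protein gene (0, negative = upstream), with the TSS of the facing gene where it is within 500 bp of the same summit. The summit lies between the facing start sites at all such genes but mRpL23, where it is 73 bp downstream of a TSS of the member.

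Facing arrangements were common in the whole gene family. A gene on the opposite strand, protein-coding or not, started within 1000 bp upstream of 58 of the 73 members (79.5%), against 5526 of 13945 protein-coding genes (39.6%). This held for 13 of the 13 bound members and for 45 of the 60 others (75%). In all protein-coding genes it held for 62.5% of the bound and 35.6% of the others. Among genes with such a neighbour, 13 of 58 members (22.4%) and 23.4% of all genes were bound. Without one, 0 of 15 members were bound, against 9.18% of all genes. Within facing pairs the members were thus bound at about the share of all genes, and the 15 members without such a neighbour are few. The part of the gene arrangement in the count of bound members was not tested.

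The subunits differed little. In the IDR list 8 of 47 genes of the large subunit (17.0%) and 5 of 26 of the small subunit (19.2%) were bound, and on leaving out replicates 1, 2 and 3 they were 5, 5 and 5 of the large and 4, 3 and 3 of the small. When members were divided by the number in their symbol, a rule chosen after the values were seen, 10 of the 42 with numbers up to L36 or S21, used in bacteria, were bound (23.8%). Of the 31 with higher numbers 3 were bound (9.68%), and these were mRpL41, mRpL43 and mRpS23, so that 2 of the 3 strongest peaks belonged to them. By chromosome arm, 6 of 12 members were bound on 2L, 2 of 12 on 2R, 4 of 17 on 3L, 1 of 21 on 3R and 0 of 11 on X, against 15.1%, 13.5%, 16.7%, 16.0% and 12.0% of all genes. On 2L and 3L together lay 10 of the 13 bound members, and these counts are small.

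Motifs were searched on both strands as descriptions of the sequence, first within 50 bp of the summit. At none of the 13 member summits was there TATCGATA (the DNA replication-related element, in 2.08% of promoter peaks), GGTCACAC (a core promoter motif, in 1.56%), CAGCTG (an E-box, in 4.11%), CACGTG (another E-box, in 1.22%), CCGGAAG (the ETS core, in 1.04%) or CGATA (a BEAF recognition core by name, in 16.9% and also found inside the first of these). TATAAA was at 4 of 13, namely mRpL17, mRpL23, mRpL43 and mRpS7, against 20.8%, and GAGAG at mRpL17 alone, against 12.7%. The 8 bases ACAGGGTG were picked from the other 439 summits among the strongest 443, set beside their flanks. They were present at 76 of these summits (17.3%) and in 0 of the flanks. The choice was made on these same windows, so these counts describe it and are not a separate result. ACAGGGTG was at 60 of the 1727 promoter peaks (3.47%) and at 0 of the 13 member summits. The first 6 of these bases, ACAGGG, were at 92 of the 439 and at the mRpL20 summit alone among members. Their absence at a summit says only that the window does not hold these letters. Within 100 bp of the summit, a window added after seeing the data, CGATA was at 6 of the 13 members against 32.5% of promoter peaks and ACAGGG at 3 (mRpL20, mRpL43 and mRpS10) against 8.86%.

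The mRpL20 and mRpS10 summits are shown with 75 bp on each side (3L:13018027-13018177 and 3R:15229461-15229611, dm6, RefSeq, each on the strand of the named gene), because these wider windows hold the first 6 of those bases. At mRpS10, one of the 4 strongest member peaks, they lie more than 50 bp from the summit. Capitals mark ACAGGG, read from the other strand at mRpL20, and CGATA, present at mRpL20.
mRpL20: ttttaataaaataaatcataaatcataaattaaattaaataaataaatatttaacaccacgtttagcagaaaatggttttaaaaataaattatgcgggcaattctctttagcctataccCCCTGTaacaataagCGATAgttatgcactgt
mRpS10: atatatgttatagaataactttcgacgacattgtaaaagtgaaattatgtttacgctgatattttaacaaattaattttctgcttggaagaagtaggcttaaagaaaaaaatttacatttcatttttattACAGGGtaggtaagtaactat

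In the 300 bases from 250 bp before to 50 bp after the most upstream TSS, the members differed from other genes most in CAGCTG. It was in 40 of the 73 promoters (54.8%) against 17.7% of all protein-coding genes, and in 8 of the 13 bound and 32 of the 60 other members. Bound and other members thus held it alike, while the value for all bound genes was 21.7%. TATCGATA was in 15 member promoters (20.5%) against 9.36%, with 5 among the 13 bound and 10 among the 60 others. Of all bound genes 12.5% held TATCGATA. CGATA was in 43 (58.9%) against 47.4%, TATAAA in 34 (46.6%) against 45.8%, GGTCACAC in 8 (11.0%) against 7.70% and CACGTG in 5 (6.85%) against 4.20%. GAGAG was less frequent, in 12 (16.4%) against 29.7%, and CCGGAAG was in 0 of 73 against 1.09%. ACAGGG was in 8 (11.0%) against 5.83%, with 4 among the 13 bound and 4 among the 60 others. Of all bound genes 10.6% held ACAGGG, so it was more frequent at bound promoters in general. ACAGGGTG was in 0 of 73 against 0.523%.

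Other genes of mitochondrial gene expression were counted from lists set by function. None of 15 mitochondrial aminoacyl-tRNA synthetase genes, none of 9 genes of mitochondrial translation factors and none of the 3 mitoribosome genes with other names (tko, bonsai and CRIF) was bound in the IDR list, which held 14.8% of all genes. In the whole pooled list, which held 43.0% of all genes, 5 of the 15, 3 of the 9 and all of the 3 had a summit in the window. Of 20 genes of mitochondrial DNA and RNA factors 4 were bound (20%), near the share of all genes, and the lists are too short for their counts to be set apart from it. PNPase, which degrades RNA in mitochondria, had a signal of 1533.45 (rank 84) and replicate ranks of 101, 83 and 89, and Lon, a protease of the matrix, had 1017.2 (rank 155) and ranks of 171, 168 and 148. These lie among the member peaks at mRpS23, mRpS10, mRpL41 and mRpL23 in strength and in the closeness of the replicates. Peaks at mTerf5, of the mitochondrial termination factor family, and mtSSB, which binds single-stranded mitochondrial DNA, were at ranks 2520 and 3308. Replicate ranks were 3207, 2702 and 3595 at mTerf5 and 3323, 2449 and 12051 at mtSSB. The Lon summit was also at PIG-F and the mTerf5 summit also at Non3, while those of PNPase and mtSSB were at no other gene. In contrast to the mitochondrial members, 59 of 85 cytosolic ribosomal protein genes (69.4%) were bound. A summit of the strongest 443 peaks was at 2 of the 85 (2.35%) and at 4 of the 73 mitochondrial members (5.48%). The share of all genes was 2.27%, and both counts are small.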

How the data were processed

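The authors deposited narrowPeak lists for 3 biological replicates and their pool. Per the labels and the readme texts, each list was called against 1 control alignment common to all replicates, and IDR was then run on them. The aligner, the caller, the IDR threshold and the sequencing depth were not given in the sources used here. The deposited signal of each peak is the authors' value on an unstated scale, so it served only to rank or describe peaks within a list, and the precision it gives is unknown. The lists on dm3 were not used here. The 4426 IDR peaks were the 4426 strongest of the pooled list.

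From these lists, summits (start plus offset, counted from 1) were compared with TSSs of the Ensembl annotation (release 115) on dm6, and sequence was read from the RefSeq copy of that assembly, with Python 3.11.15, pandas 2.3.3 and numpy 2.4.6. A facing gene is any annotated gene on the opposite strand, protein-coding or not, that starts within 1000 bp upstream. Transposable elements were left out. The counting steps were tested on simulated data. With 1 group and no read counts no test over samples was possible, and none was made over genes, so shares stand beside those of all protein-coding genes. The members and lists were chosen with earlier results of these data known. Named genes were all bound members with the genes at their summits, the 5 members next below the IDR list, members with an IDR summit at 500 to 1000 bp, and all bound genes of the other mitochondrial lists. Members found in 1 replicate or in no list were named after their values were seen. Of the other lists, mEFG2, mtRF1 and Noa1 were not matched to a gene symbol and were left out.

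Alternatives were windows of 200 and 1000 bp, the strongest 2213 IDR peaks, the nearest TSS alone, a TSS inside the interval, the most upstream TSS alone, each replicate alone, each replicate left out, and other motif windows.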

Additional observations from a re-analysis of the deposited data

How the results depend on the processing

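The count of 13 bound members was within 1.5 times under windows of 200 bp (10) and 1000 bp (14), with the most upstream TSS alone (13) and in each replicate alone (14, 15 and 11). The share of members was 13.7% at 200 bp against 9.91% of all genes, and 19.2% at 1000 bp against 17.8%. With the most upstream TSS alone it was 17.8% against 12.5%. In replicates 1, 2 and 3 alone it was 19.2%, 20.5% and 15.1%, against 16.4%, 16.0% and 12.6%. The count was 6 (8.22%) with the strongest 2213 IDR peaks, against 8.28% of all genes. It was 5 (6.85%) with the nearest TSS alone against 10.9%, and 8 (11.0%) with a TSS inside the interval against 9.04%. Keeping only IDR peaks matched among the strongest 4426 of the other 2 replicates gave 8 to 9 members. The shares were 12.3%, 11.0% and 11.0% of members without replicates 1, 2 and 3, against 9.66%, 9.42% and 10.9% of all genes. The counts were 8 without replicate 2, which lost mRpL17, mRpL21, mRpL4, mRpS18B and mRpS7, and 8 without replicate 3, which lost mRpL21, mRpL4, mRpL43, mRpS18B and mRpS7. The members mRpL20, mRpL23, mRpL24, mRpL41, mRpS2, mRpS10 and mRpS23, were kept in every such set. For the large subunit the count of 8 became 5 to 5 on leaving out a replicate, 3 with the strongest 2213 and 3 with the nearest TSS. For the small subunit the count of 5 became 3 to 4, 3 and 2. The 12 members at shared promoters became 6 of 10 with a 200 bp window (against 40.0% of bound genes) and 6 of 6 with the strongest 2213. In the relaxed lists the counts with windows of 200 and 1000 bp were within 1.5 times of those at 500 bp, and the share of members was below that of all genes in replicate 3 at 1000 bp alone. The median rank of 2234 became 1700.5 at 200 bp, 157 with the strongest 2213 and 359 to 512 on leaving out a replicate. The 7 members in every replicate's strongest peaks became 14 with the strongest 10000 (19.2%, against 15.1% of all genes). The following were chosen after seeing the data. With a 1000 bp window 1 mitochondrial aminoacyl-tRNA synthetase gene was bound. Within 100 bp of the summit TATCGATA was at 1 member (5.50% of promoter peaks), CAGCTG at 3 (10.3%), CACGTG at 1 (2.55%), GAGAG at 3 (26.1%), CGATA at 6 (32.5%) and ACAGGG at 3 (8.86%), and within 25 bp ACAGGG was at 0. A stricter set has fewer peaks by construction, and the cause of other moves was not tested. Of all alternatives computed, 53 values moved little and 30 moved further. No paired analysis was possible because the 3 replicates form 1 group. The depth of the libraries was not given in the sources used here, so what it limits was not tested.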
